A study of Mus musculus with 6 samples.

Results

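The 36 genes described here are *Trp53*, which codes for the transcription factor p53, and genes of its pathway, most of them direct targets. They were picked by symbol for their place in the pathway, with earlier results of these data known, and each of them matched 1 row among the 22063 genes of the deposited table. They fall into 5 groups by role, namely feedback on p53, growth arrest, apoptosis, DNA repair and metabolism. RNA was sequenced from primary fibroblasts of mouse hearts with floxed *Tet3* alleles, *Tet3* being the gene of an enzyme that oxidises 5-methylcytosine in DNA. The control group (GFP, genotype Control) received an adenovirus coding for green fluorescent protein. The other group (CRE, genotype Tet3 knockout) received an adenovirus coding for Cre recombinase, and both groups were treated with TGF-β. Each group held 3 libraries, and the labels do not say whether these came from separate mice or cultures, so p-values measure the spread between libraries only. Cells that made Cre but kept *Tet3* were not analysed here, so the presence of Cre and the loss of *Tet3* cannot be told apart.

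p53 is kept low in unstressed cells by the ubiquitin ligase MDM2 and its partner MDM4, and it accumulates as protein after DNA damage and other stress. It binds DNA at a pair of adjacent half-sites and raises the transcription of genes that halt the cell cycle, repair DNA, alter metabolism or trigger cell death. Some of its targets, *Mdm2* among them, act back on p53 and limit the response. In fibroblasts the pathway is best known for growth arrest and senescence after stress.

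Total counts lay between 17002126 and 20343590 per library. *Tet3* itself had 64.9, 54.4 and 52.0 CPM (the unit of edgeR for counts relative to a library's effective size) in the GFP libraries and 34.5, 35.9 and 33.6 CPM in the CRE libraries, so the groups did not overlap. Its log2 fold change, always CRE over GFP, was -0.72 (SE 0.08, edgeR adjusted p of 5.36e-05). In bulk RNA, fewer cells with a transcript and less of it per cell cannot be told apart. The 12 fibroblast markers summed to between 42197 and 43409 CPM in GFP and between 23317 and 25433 CPM in CRE libraries. None was at 0, and 11 were called lower (edgeR adjusted p under 0.05), that is 91.7% beside 25.7% of all tested genes. Endothelial markers (12 genes) summed to 443–491 CPM in GFP and 223–254 CPM in CRE libraries, and smooth muscle and pericyte markers (10 genes) to 175–194 and 143–164 CPM. Macrophage markers (10 genes) summed to 59.1–66.7 and 35.1–38.5 CPM. Called lower were 10 of 12 tested endothelial (83.3%), 5 of 10 smooth muscle and pericyte (50%) and 3 of 6 macrophage markers (50%). Called higher was 1 smooth muscle and pericyte marker (10%, beside 25.5% of all tested genes). Cardiomyocyte markers (10 genes, *Myh6* at 0 in all libraries) summed to 0.79–1.14 CPM in GFP and 1.53–2.79 CPM in CRE libraries. Only 1 of them, *Nppb*, was tested, and it passed the filter on low counts only through the CRE libraries, where it was high. It was called higher, with 0.11 ± 0.05 CPM in GFP and 1.12 ± 0.41 CPM in CRE libraries (SD, n = 3). Its GFP level was within the limit that a count of 0 allows. The epithelial and mesothelial markers (10 genes, *Krt5* and *Krt14* at 0) were at 7.77–9.19 CPM in GFP and 8.55–12.6 CPM in CRE libraries, which overlap. Of the 4 that were tested, 3 were called higher (75%) and 1 lower (25%). Their log2 fold changes ran from -2.10 to 1.79. The other sums moved between the groups together with the genes below, and the part of all these markers in the results was not tested.

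Most of the p53 target genes were higher in CRE cells, whereas *Trp53* itself was not. In edgeR's quasi-likelihood test, fitted to all genes, 22 of the 36 genes rose and 4 fell at an adjusted p under 0.05. That is 61.1% higher and 11.1% lower, where 25.5% of the 12862 tested genes were called higher and 25.7% lower. Among genes with at least 10 counts in every library, *Sfn*, *Gdf15* and *Btg2* rose most and *Fdxr* fell furthest. All 36 genes passed the filter on low counts, but *Perp*, with 4 to 10 counts in GFP libraries, passed it only through the CRE libraries, where it was high. With at least 10 counts required in every library it was not tested and 21 rises were left. The median log2 fold change of the 36 genes was 0.36, and that of all tested genes was 0.01. In 23 genes all CRE libraries lay above all GFP libraries and in 5 all lay below, against 30.0% and 29.6% of the tested genes. The study's methods set a limit on the fold (over 1.5, or under 0.66) beside an unadjusted p of 0.05. Of the 36 genes, 10 passed it upward and 1 downward, against 7.52% and 10.3% of the tested genes. With at least 10 counts required in every library, 9 passed it upward. An exact two-sided permutation test of single values cannot give a p below 0.1 with 3 libraries against 3, and it gave 0.1 for both *Trp53* and *Cdkn1a*.

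**Figure D1:**
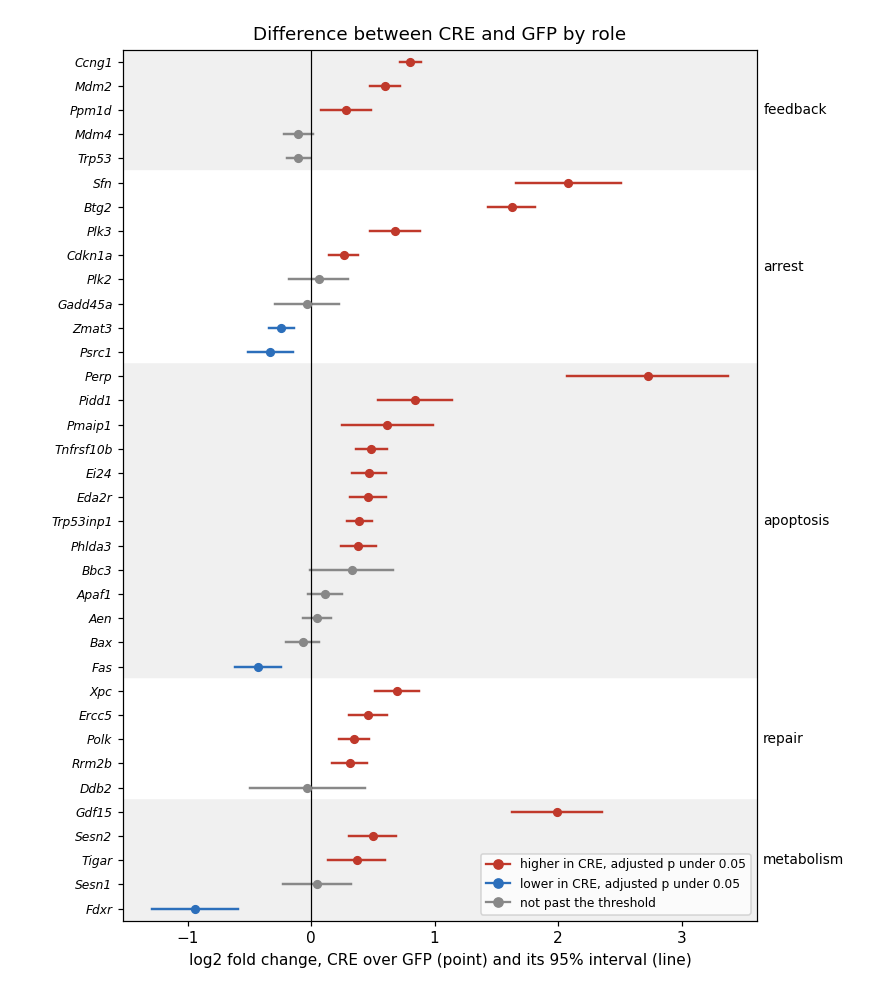
Log2 fold change, CRE over GFP, of each of the 36 genes (point) with its 95% interval (line), arranged by role and coloured by call at an adjusted p under 0.05. *Perp*, *Sfn*, *Gdf15* and *Btg2* lie between 1.62 and 2.73, the other rises lie between 0.26 and 0.84, and *Fdxr* stands alone at -0.94.

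Levels differed widely among the genes. On the scale of deposited FPKM, which accounts for transcript length, *Ccng1* was highest in both groups, with means of 189.7 FPKM in GFP and 370.6 FPKM in CRE libraries. *Cdkn1a* followed with 129.5 and 168.9 FPKM, and *Plk2* with 76.1 and 88.8 FPKM. The next places changed between the groups. In GFP libraries *Bax* (54.8 to 58.2 FPKM) lay above *Trp53* (42.5 to 43.3 FPKM) and *Mdm2* (40.1 to 43.1 FPKM), and the last 2 overlapped. In CRE libraries *Mdm2* (67.3 to 75.2 FPKM) lay above *Bax* (55.8 to 63.3 FPKM), and *Bax* above *Trp53* (44.4 to 45.0 FPKM). *Perp* had the lowest mean in GFP libraries (0.21 FPKM) and *Ddb2* in CRE libraries (1.27 FPKM). FPKM values were shifted upward in CRE libraries, with a median change over all tested genes of 0.13 on log2(FPKM + 1).

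**Figure D2:**
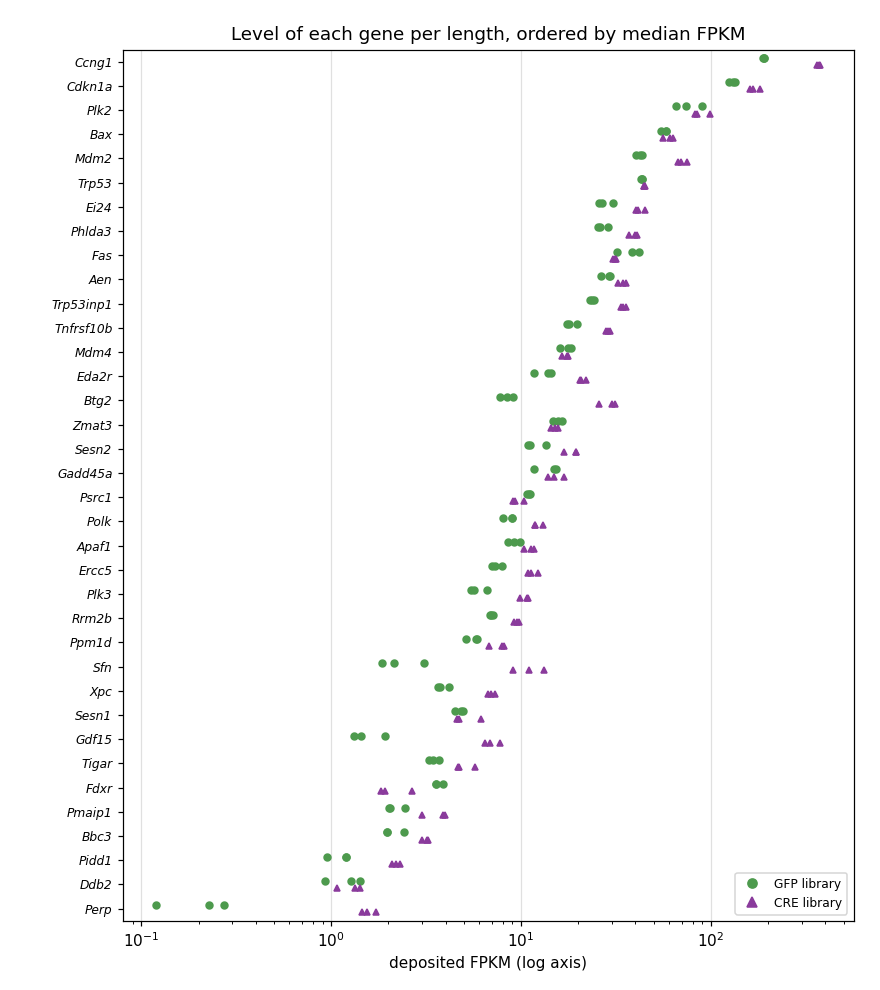
Deposited FPKM of each gene (log axis) in the 3 GFP libraries (circles) and 3 CRE libraries (triangles), ordered by the median over the 6 libraries. Levels span from below 0.3 FPKM for *Perp* in GFP libraries to above 360 FPKM for *Ccng1* in CRE libraries.

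Among the feedback genes, *Ccng1* and *Mdm2* rose while *Trp53* and *Mdm4* did not pass the test. *Trp53* (ENSMUSG00000059552, chromosome 11, positions 69580359 to 69591873 in GRCm38, plus strand) had 81.7, 81.2 and 79.9 CPM in GFP and 76.2, 74.8 and 74.8 CPM in CRE libraries. The CRE libraries lay below the GFP libraries, but the difference was small, with a log2 fold change of -0.10 (SE 0.04, 95% interval from -0.20 to -0.01) and an edgeR adjusted p of 0.0613. With library size alone, which moved the median of all tested genes from 0.01 to 0.17, it was 0.058. In deposited FPKM the order of the groups was reversed, with 44.4 to 45.0 FPKM in CRE and 42.5 to 43.3 FPKM in GFP libraries. *Mdm4*, a relative of MDM2 that blocks the transcriptional activity of p53, had 93.0, 102.3 and 103.4 CPM in GFP and 94.6, 94.4 and 89.2 CPM in CRE libraries. The groups overlapped through GFP replicate 1, and the log2 fold change was -0.10 (SE 0.05, adjusted p of 0.130). It turned to 0.059 with library size alone and passed the threshold only without GFP replicate 1 (-0.15, adjusted p of 0.0247).

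*Mdm2* (chromosome 10, positions 117688875 to 117710758, minus strand), the ligase that marks p53 for degradation, had 138.5, 141.2 and 131.1 CPM in GFP libraries and 221.2, 203.3 and 197.0 CPM in CRE libraries. Every CRE library was well above every GFP library, and the log2 fold change was 0.60 (SE 0.05, adjusted p of 1.26e-05). *Ccng1* codes for cyclin G1, which recruits a phosphatase to MDM2 and was the most abundant transcript of the 36. It had 709.5, 701.7 and 704.4 CPM in GFP and 1244, 1246 and 1204 CPM in CRE libraries. With a spread of only 3.95 CPM (SD, n = 3) in GFP and 23.5 CPM (SD, n = 3) in CRE libraries, the log2 fold change of 0.80 (SE 0.04) had the smallest adjusted p of the 36 genes (3.13e-07). *Ppm1d*, the gene of the phosphatase WIP1 that switches the damage response off, rose by 0.28 (SE 0.09, adjusted p of 0.0245), or 0.45 with library size alone. Its call did not hold without GFP replicate 2, CRE replicate 2 or CRE replicate 3, with adjusted p of 0.0846, 0.0830 and 0.0806.

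*Ccng1* and *Cdkn1a* are shown by sequence because theirs were the only start regions of the list that held a p53 site by the criterion used. RefSeq start regions (GRCm38.p6, most of each upstream of a start) were found for 28 of the 36 genes and were searched for the full p53 consensus, a pair of half-sites with no spacer. The consensus reads the same on both strands, so that a single scan covers both, and up to 2 mismatches outside the central C and G of each half-site were allowed. Of the 28 genes, 2 (7.14%) held such a site, against 0.392% of all 27025 genes with such regions. The genes were picked for their place in the p53 pathway, so this contrast says nothing about the CRE and GFP libraries. Both sites have 1 mismatch. The *Cdkn1a* site begins 51 bases before the upstream start of the gene (chr17:29090928-29090947, plus strand), and the window around the second start of *Cdkn1a* held none. The *Ccng1* site begins 195 bases before its start (chr11:40755462-40755481, minus strand). A match describes letters only, and sites outside these windows were not searched. The windows chr17:29090729-29091028 (plus strand) and chr11:40755237-40755536 (minus strand) follow 5′ to 3′, with the p53 site in capitals.
Cdkn1a: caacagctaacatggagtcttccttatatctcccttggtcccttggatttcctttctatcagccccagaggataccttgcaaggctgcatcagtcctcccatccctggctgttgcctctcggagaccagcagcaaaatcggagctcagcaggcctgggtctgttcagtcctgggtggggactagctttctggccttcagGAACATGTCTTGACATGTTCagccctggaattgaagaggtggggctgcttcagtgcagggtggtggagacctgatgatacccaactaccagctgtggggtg
Ccng1: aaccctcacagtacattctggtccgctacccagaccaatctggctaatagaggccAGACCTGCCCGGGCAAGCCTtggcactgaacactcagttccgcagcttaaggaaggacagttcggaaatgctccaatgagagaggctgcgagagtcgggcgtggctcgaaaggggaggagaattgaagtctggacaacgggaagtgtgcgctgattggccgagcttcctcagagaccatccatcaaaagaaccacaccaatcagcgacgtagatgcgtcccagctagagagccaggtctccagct

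Of 8 arrest genes 4 rose, 2 fell and 2 did not pass the test. The 4 rises are 50% of the group, beside 25.5% of all tested genes, and the 2 falls are 25.0%, near the 25.7% of all tested genes. *Cdkn1a* (chromosome 17, positions 29090976 to 29100727, plus strand) codes for p21, the inhibitor of cyclin-dependent kinases through which p53 halts the cell cycle. It had 247.6, 231.7 and 242.5 CPM in GFP libraries and 308.7, 285.2 and 272.3 CPM in CRE libraries. The groups did not overlap, and the log2 fold change was 0.26 (SE 0.05, adjusted p of 0.00239), or 0.43 with library size alone. A gene model on the other strand overlaps 7.68% of its exonic bases, and whether reads were counted by strand is not given in the sources used here. Among the other called genes, such models overlap 8.04% of the exonic bases of *Rrm2b*, 6.66% of *Ei24*, 3.34% of *Tigar* and 3.32% of *Plk3*.

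*Btg2*, a regulator of mRNA decay that restrains proliferation, and *Sfn*, the gene of 14-3-3 sigma, which holds cells at the G2 phase, had larger fold changes than *Cdkn1a*. *Btg2* (chromosome 1, positions 134075170 to 134079120) had 24.4, 22.4 and 26.3 CPM in GFP and 81.2, 77.8 and 66.6 CPM in CRE libraries, a log2 fold change of 1.62 with an SE of 0.09 and an adjusted p of 5.08e-07. *Sfn* (chromosome 4, positions 133600556 to 133602168) had 5.28, 3.66 and 3.17 CPM in GFP and 16.9, 20.1 and 13.9 CPM in CRE libraries, with a log2 fold change of 2.08 with an SE of 0.19 and an adjusted p of 1.28e-05. For both genes the lowest CRE library was more than 2 times the highest GFP library. *Plk3*, a stress-responsive polo-like kinase, had 16.7, 13.7 and 14.1 CPM in GFP and 24.4, 22.2 and 24.5 CPM in CRE libraries, a change of 0.68 with an SE of 0.09 and an adjusted p of 0.000165. Its relative *Plk2* did not pass the test. It spread from 193.1 to 264.9 CPM in GFP and from 218.0 to 263.9 CPM in CRE libraries, the difference was 0.06 (95% interval from -0.18 to 0.30), and its sign was negative without GFP replicate 2 or CRE replicate 1.

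*Zmat3*, an RNA-binding regulator of splicing, and *Psrc1*, which codes for a protein of the mitotic spindle, were lower. Their log2 fold changes were -0.24 (SE 0.05, adjusted p of 0.00155) and -0.33 (SE 0.08, adjusted p of 0.00676). Neither was called with library size alone or on log2(FPKM + 1). *Zmat3* was then at -0.079 (adjusted p of 0.159) and -0.056 (0.476), and at -0.059 (0.474) on log2(FPKM + 0.1). *Psrc1* was at -0.17 (adjusted p of 0.0965) with library size alone, at -0.18 (0.0514) on log2(FPKM + 1), and at -0.19 (0.0486) on log2(FPKM + 0.1). *Gadd45a*, a damage-induced gene of arrest and repair, ranged from 15.1 to 19.8 CPM in GFP and from 15.9 to 19.7 CPM in CRE libraries, and its 95% interval ran from -0.29 to 0.23. A gene model on the other strand covers 19.1% of its exonic bases.

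**Figure D3:**
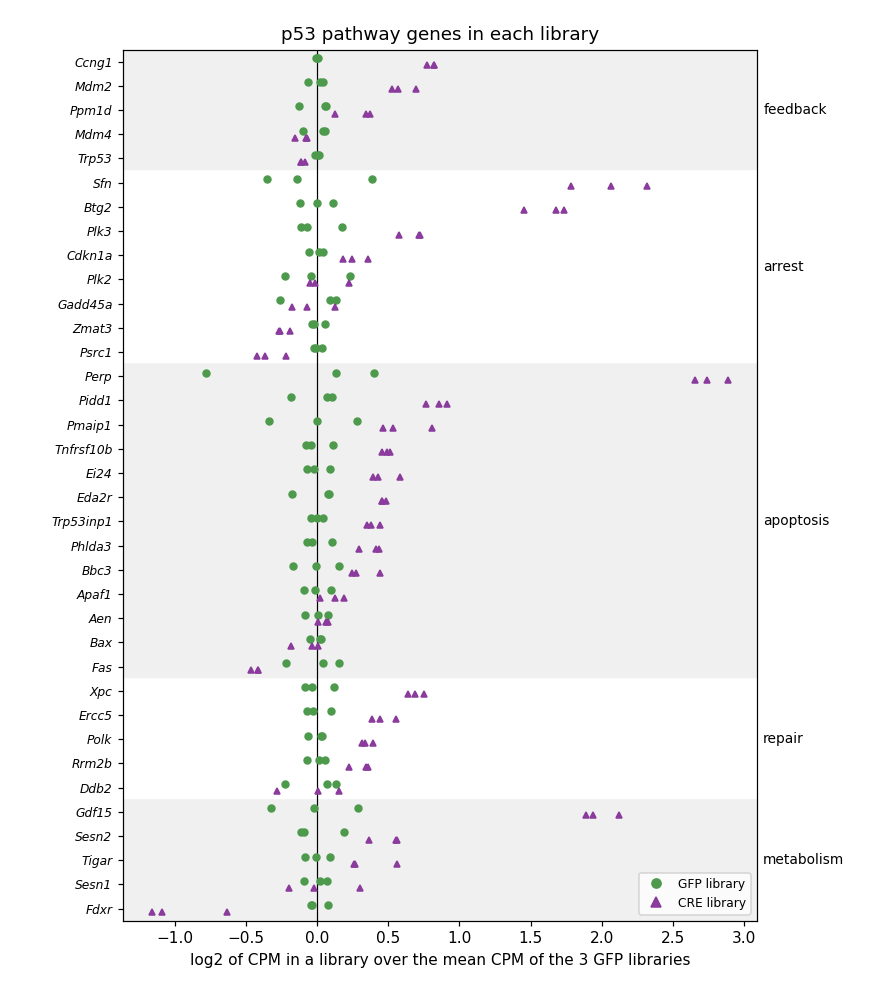
Each library's CPM over the mean of the 3 GFP libraries (log2 scale) for the 36 genes by role, with GFP libraries as circles and CRE libraries as triangles. In 23 genes all triangles lie to the right of all circles and in 5 all lie to the left, while *Plk2*, *Gadd45a*, *Ddb2* and *Sesn1* show intermingled libraries.

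Of 13 apoptosis genes 8 rose, 1 fell and 4 did not pass the test. That is 61.5% higher and 7.69% lower, beside 25.5% and 25.7% of all tested genes. *Perp* is among the 8 rises and passed the filter on low counts only through the CRE libraries. *Bax*, whose product permeabilises the outer mitochondrial membrane, ranged from 52.4 to 55.2 CPM in GFP and from 47.8 to 54.5 CPM in CRE libraries. Its groups overlapped, and the log2 fold change was -0.07 (SE 0.06, 95% interval from -0.20 to 0.06, adjusted p of 0.372), with a positive sign (0.095) under library size alone. Another gene model of the same strand overlaps 12.2% of its exonic bases. *Bbc3*, the gene of the BH3-only protein PUMA, had 65 to 68 counts in GFP and 81 to 96 counts in CRE libraries. All CRE libraries were higher, but the change of 0.33 (SE 0.15) had an adjusted p of 0.0962 and passed the threshold only with library size alone and on FPKM values. *Apaf1*, the scaffold of the apoptosome, and *Aen*, an apoptosis-linked nuclease, had overlapping groups and changes of 0.11 and 0.05 (adjusted p of 0.166 and 0.460), and were called in those same fits only.

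*Pmaip1*, which codes for NOXA, another BH3-only protein, did pass the test. It had 6.78, 5.58 and 4.42 CPM in GFP and 9.78, 7.70 and 8.08 CPM in CRE libraries, which gives 0.62 on the log2 scale (SE 0.16, adjusted p of 0.0102). *Pidd1*, the core of a complex that activates caspase-2, had 54, 71 and 79 counts in GFP and 134, 125 and 123 counts in CRE libraries, or 3.82 ± 0.41 and 6.87 ± 0.36 CPM (SD, n = 3), with no overlap (log2 fold change 0.84, SE 0.14, adjusted p of 0.000513). *Perp* (chromosome 10, positions 18845020 to 18857073), a p53 target that codes for a tetraspan membrane protein of desmosomes, had 4, 10 and 9 counts in GFP and 50, 57 and 54 counts in CRE libraries. That is 0.43 ± 0.16 CPM against 2.90 ± 0.24 CPM (SD, n = 3), and the log2 fold change was 2.73 (SE 0.29, adjusted p of 3.72e-05). On log2(FPKM + 1) values, which understate changes of low genes, it was 1.09.

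Receptors of the tumour necrosis factor family were called in both directions. *Tnfrsf10b*, which codes for the mouse TRAIL receptor, rose from 61.7 ± 4.32 to 86.4 ± 1.78 CPM (SD, n = 3), or by 0.49 on the log2 scale (SE 0.06, adjusted p of 5.71e-05). *Eda2r*, the receptor for ectodysplasin A2, rose by 0.46 (SE 0.07, adjusted p of 0.000234). *Fas*, the receptor for FAS ligand, fell from 50.1, 59.7 and 64.7 CPM in GFP libraries to 43.6, 43.6 and 42.1 CPM in CRE libraries, a log2 fold change of -0.43 with an SE of 0.08 and an adjusted p of 0.00157. GFP replicate 1 lay nearest to the CRE libraries, and without it the change was -0.53. *Fas* kept its call in each of the 14 other fits, but was at -0.27 with library size alone and at -0.24 (adjusted p of 0.0471) on log2(FPKM + 1). *Ei24*, *Trp53inp1* and *Phlda3*, the last an inhibitor of AKT, rose by 0.47, 0.39 and 0.38, with the largest adjusted p of the 3 at 0.000628.

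Of 5 repair genes 4 rose (80.0%, beside 25.5% of all tested genes), none fell and *Ddb2* did not pass the test. *Xpc* and *Ddb2* both code for sensors of damage in nucleotide excision repair. *Xpc* (chromosome 6, positions 91489305 to 91515888) had 259, 257 and 269 counts in GFP and 431, 433 and 473 counts in CRE libraries, or 14.9 ± 1.11 and 24.04 ± 0.91 CPM (SD, n = 3). All CRE libraries were higher, and the log2 fold change was 0.70 with an SE of 0.08 and an adjusted p of 5.36e-05. *Ddb2* had only 36 to 50 counts in GFP and 37 to 49 counts in CRE libraries. Its groups overlapped and its 95% interval, from -0.50 to 0.43, leaves room for changes of either sign. Exons of *Acp2* on the other strand cover 23.8% of its exonic bases. *Ercc5*, the gene of the excision nuclease XPG, rose by 0.46 (SE 0.07), *Polk*, the gene of a translesion polymerase, by 0.35 (SE 0.05), and *Rrm2b*, which supplies deoxyribonucleotides for repair, by 0.31 (SE 0.06) or, with library size alone, 0.47. The largest adjusted p of these 4 rises was 0.00219.

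The genes of metabolism and stress signalling held both one of the largest rises and the largest fall. *Gdf15* (chromosome 8, positions 70629393 to 70632456), which codes for a secreted stress cytokine and is also induced by other stress pathways, had 2.36, 2.93 and 1.92 CPM in GFP and 10.5, 8.92 and 9.24 CPM in CRE libraries. The log2 fold change was 1.99 (SE 0.16, adjusted p of 6.49e-06), and in raw counts the GFP libraries held 37 to 52 and the CRE libraries 161 to 195. *Fdxr* (chromosome 11, positions 115268024 to 115277050), the gene of ferredoxin reductase of mitochondria, went the other way. It had 7.96, 7.38 and 7.33 CPM in GFP and 3.55, 4.87 and 3.38 CPM in CRE libraries, which is 52.0% of the GFP mean and a log2 fold change of -0.94 with an SE of 0.16 and an adjusted p of 0.000621. On log2(FPKM + 1) it was -0.58.

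The sestrins, which restrain mTORC1 signalling, differed from each other in call. *Sesn2* rose by 0.50 (SE 0.09, adjusted p of 0.000830), with 40.1 to 49.6 CPM in GFP and 55.9 to 64.0 CPM in CRE libraries. *Sesn1* spread from 13.6 to 15.3 CPM in GFP and from 12.7 to 18.0 CPM in CRE libraries, with a 95% interval from -0.23 to 0.32. Whether the changes of this pair differ was not tested. *Tigar*, the gene of a fructose bisphosphatase that diverts glucose from glycolysis, rose by 0.37 (SE 0.10, adjusted p of 0.0127), a call that did not hold without GFP replicate 3 (0.33, adjusted p of 0.0516).

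Other genes of the pathway were read from 3 further lists. Of 49 tested p53 targets outside the 36 genes, 21 rose and 9 fell, that is 42.9% and 18.4% beside 25.5% and 25.7% of all tested genes, with a median log2 fold change of 0.14. The highest were *Cyfip2* (1.16, SE 0.34, 11 to 36 counts), *Gtse1* (1.03, SE 0.07), which codes for a protein that shuttles p53 out of the nucleus, and *Sesn3* (0.94, SE 0.08), the third sestrin. The lowest were *Igfbp3* (-2.04, SE 0.05), which codes for a binding protein of insulin-like growth factors, *Rprm* (-1.17, SE 0.36, 7 to 25 counts) and *Ptp4a3* (-0.99, SE 0.10). The largest adjusted p of these 6 genes was 0.0197. *Rprm* passed the filter on low counts only through the GFP libraries, where it was high, and 8 falls were left when at least 10 counts were required in every library. 

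Of 28 tested regulators and relatives of p53, 6 rose and 7 fell, or 21.4% and 25.0%, near the 25.5% and 25.7% of all tested genes. The median log2 fold change was 0.03, library size alone gave 15 rises and 6 falls, and the relatives *Trp63* and *Trp73* had too few counts to be tested. *Cdkn2a*, the locus of p16 and of p19ARF, which inhibits MDM2, fell from 357, 311 and 430 counts in GFP to 174, 135 and 177 counts in CRE libraries. Its log2 fold change was -1.24 (SE 0.13), and the count of the whole locus does not separate its products. *Prkdc*, the gene of the DNA-dependent protein kinase, fell by 0.89 (SE 0.07) and *Rpl5*, a ribosomal protein that can bind MDM2, by 0.83 (SE 0.05). The highest were *Ing2* (0.43, SE 0.11), *Ppp1r13b* (0.42, SE 0.07) and *Sirt1*, a deacetylase of p53 (0.28, SE 0.08). The largest adjusted p of these 6 genes was 0.0114.

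Of 32 cell cycle genes that p53 and p21 are known to lower, 2 rose, 4 fell and 26 did not pass the test. That is 6.25% and 12.5%, beside 25.5% and 25.7% of all tested genes, and the median log2 fold change was -0.04. In 6 of the 32 all CRE libraries lay above all GFP libraries and in 8 below, against 30.0% and 29.6% of the tested genes. The median level of the list was 3.52 FPKM, beside 12.7 FPKM for the 36 genes. Whether low levels limited the calls was not tested. *Mcm2* and *Mcm3*, subunits of the replicative helicase, fell by 0.77 (SE 0.09) and 0.53 (SE 0.08), and *Ccna2*, cyclin A2, by 0.54 (SE 0.13). *Mad2l1* and *E2f1* rose by 0.25 (SE 0.08) and 0.20 (SE 0.07), with adjusted p of 0.0277 and 0.0330. Rises numbered 0 in DESeq2 and 7 with library size alone, and falls numbered 7 with the replicate number as a block.

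**Figure D4:**
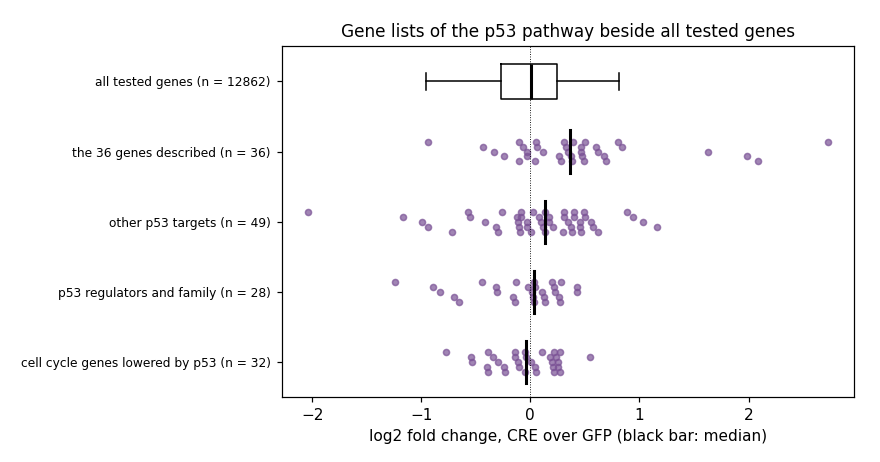
Log2 fold change, CRE over GFP, of the 36 genes and of 3 further p53 lists (points) with their medians (black bars), beside all 12862 tested genes (box from the 25th to the 75th percentile, whiskers from the 5th to the 95th). The bar of the 36 genes lies at 0.36, and those of the other targets, the regulators and the cell cycle genes lie at 0.14, 0.03 and -0.04.

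The scaling of the libraries shifted all genes. With library size alone the median of all tested genes moved from 0.01 to 0.17 and that of the 36 genes from 0.36 to 0.52, so the distance between the medians was nearly the same. Over all genes the calls then split into 5529 higher and 2083 lower (72.6% higher) in place of 3277 and 3306 (49.8% higher). Among the 36 genes 25 were then higher and 2 lower, because *Bbc3*, *Apaf1* and *Aen* gained a call and *Psrc1* and *Zmat3* lost theirs. Of the 22 rises, 20 were called in each of the other fits that tested the gene, and the exceptions were *Ppm1d* and *Tigar*. *Fas* and *Fdxr* were the falls that kept their call in all of them.

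**Figure D5:**
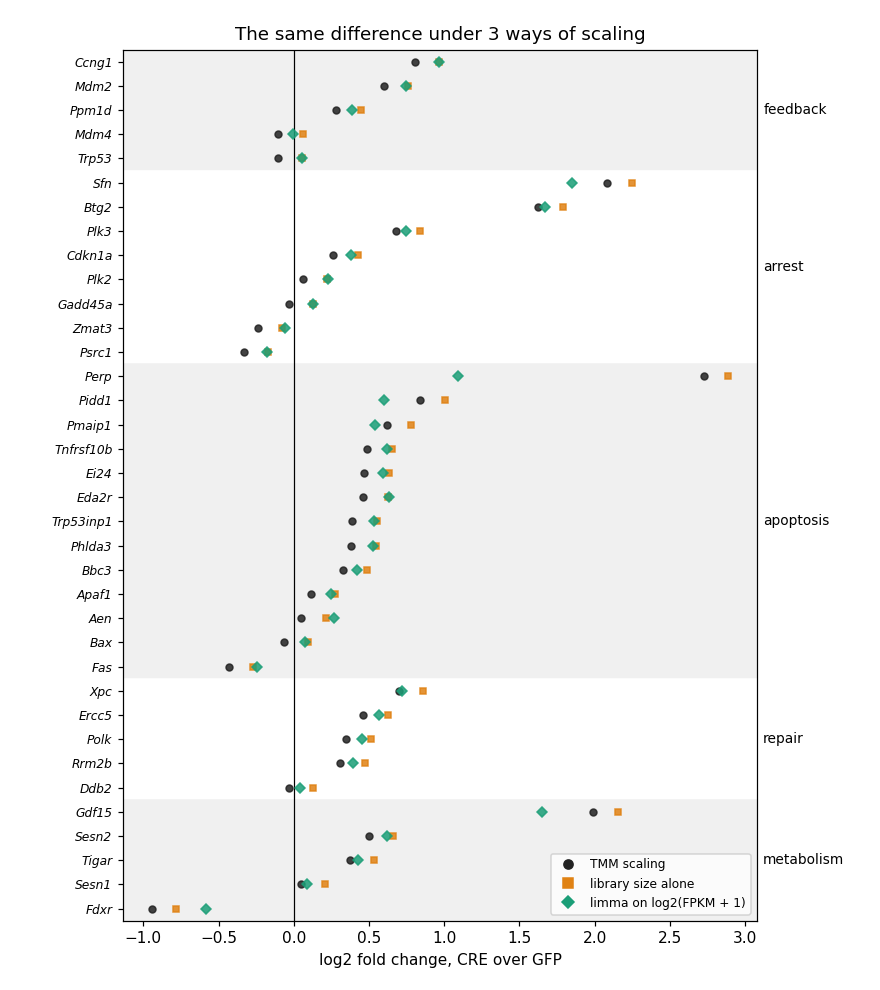
Log2 fold change of the 36 genes with TMM scaling of counts (circles), library size alone (squares) and limma on log2(FPKM + 1) (diamonds). *Trp53*, *Gadd45a*, *Bax* and *Ddb2* lie on opposite sides of 0 in TMM and the other 2 fits, *Mdm4* crosses with library size alone, and the rises of *Perp*, *Sfn*, *Gdf15* and *Btg2* stay at or above 1.09 in all 3.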

How the data were processed

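The mRNA of 6 samples (3 GFP, 3 CRE) was sequenced. After trimming (Trimmomatic) and alignment to GRCm38 (HISAT2), as the paper's methods state, the authors deposited raw counts per gene from HTSeq-count, not normalized, and FPKM from Cufflinks. Tool versions are not given in the sources used here, and the labels and the methods name different kits. The authors' own fold change, p-value and false discovery rate columns were not used. Groups and replicate numbers came from the sample titles.

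Counts were filtered with filterByExpr (minimum count 10, minimum total 15), scaled by TMM and compared by the two-sided quasi-likelihood test of edgeR 4.0.16 in R 4.3.3 on all 12862 tested genes, with Benjamini-Hochberg adjustment over all of them. The SE is the absolute log2 fold change over the square root of F, and intervals are 95%. At this depth a count of 0 allows up to 0.156 to 0.187 CPM (3 counts, counting error only). Alternatives were RLE factors, library size alone, 2 other filters, DESeq2 1.42.0, limma 3.58.1 on log2(FPKM + 1) and log2(FPKM + 0.1), a block for replicate number, and leaving out each library. The scripts for counts were first tested on simulated data. Coordinates and exon overlaps are from GENCODE M21, start regions from RefSeq. Figures were drawn with matplotlib 3.10.9.

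The genes, their roles and the lists were chosen with earlier results of these data known. Values of each library are given for called genes with an absolute log2 fold change of at least 0.5 and for *Trp53*, *Mdm2*, *Mdm4* and *Cdkn1a*, and from each further list the 3 highest and 3 lowest called genes are named. Other genes were given library values after these were seen.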

Additional observations from a re-analysis of the deposited data

How the results depend on the processing

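The 36 genes held between 21 and 25 rises and between 2 and 4 falls under 8 other ways of processing, and between 21 and 22 rises and between 4 and 5 falls when each library was left out. Falls numbered 2 with library size alone and on log2(FPKM + 1). Past the study's threshold they held 8 to 11 rises and 1 fall without a library and 9 to 15 rises under the other ways (15 with library size alone, 13 on log2(FPKM + 1) and 15 on log2(FPKM + 0.1)), with no fall (0) on log2(FPKM + 1). Over all genes, calls ran from 2735 to 3214 higher and from 2874 to 3303 lower without a library. They were 5529 and 2083 with library size alone, 4976 and 1916 on log2(FPKM + 1), and 4989 and 1909 on log2(FPKM + 0.1), or 72.6%, 72.2% and 72.3% higher. With library size alone this follows from the scaling itself, and on FPKM values the cause was not tested.

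In the same order of these 3 fits, p53 regulators held 15, 11 and 11 rises, and cell cycle genes 7, 7 and 6 rises, with 2 falls on either FPKM scale. Rises of cell cycle genes were 1 with no filter, 0 in DESeq2 and 0 to 3 without a library, where falls were 3 to 7. The causes were not tested. *Trp53* turned to 0.058, 0.053 and 0.054, *Gadd45a* to 0.13, 0.13 and 0.13, *Bax* to 0.095, 0.077 and 0.078, and *Ddb2* to 0.13, 0.044 and 0.079. *Mdm4* turned to 0.059 with library size alone. Without a library, *Gadd45a* ranged from -0.15 to 0.035, *Ddb2* from -0.13 to 0.083, *Plk2* from -0.042 to 0.19 and *Sesn1* from -0.10 to 0.16. *Tet3* kept its call throughout.

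Same-numbered libraries of the groups correlated in their deviations at 0.046, 0.18 and -0.018, so the numbers were not taken to pair them. With the replicate block, calls over all genes were 3260 higher and 3373 lower, cell cycle genes held 1 rise and 7 falls, and no call among the 36 genes changed. With no mismatch allowed, 0 of the 28 genes held a p53 site, and with 1 allowed 2 did. Genes below about 10 counts, such as *Perp* in GFP libraries, are limited by depth.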
